A study of Mus musculus with 33 samples.

Results

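Alas2, Car1, Klf1 and Slc4a1, 4 genes best known from the red cell lineage, were followed in mouse liver regrowing after surgery. They are 4 of the 18193 genes measured, and they were chosen because of their fall at 2 days (d) against 0 d. The highest-signal probe set bearing only that gene's symbol stood for each gene. Alas2, Car1 and Klf1 showed that fall. Slc4a1 did not, and it stayed below the signal needed for testing. The livers were taken on 10 occasions from 0.25 to 14 d after 70% of the organ had been cut away (partial hepatectomy, after which the remnant regrows), and at 0 d, with 3 livers per time. The first day was sampled at 0.25, 0.5, 0.75 and 1 d, growth at 1.5, 2, 3 and 4 d, and the end of regrowth at 7 and 14 d. Strain, sex and age of the mice are not given in the sources used here. The labels name no sham-operated group, so anaesthesia, surgery and loss of tissue are measured together. Total RNA of each liver was hybridized to an Affymetrix array, 33 in all, and values are log2 signals summarized by the authors with RMA.

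Alas2 encodes the erythroid form of the enzyme that starts heme synthesis, in which glycine is joined to succinyl-CoA in mitochondria. Klf1 encodes a zinc-finger transcription factor that binds CACCC sequences in promoters of globin and other red cell genes. Car1 encodes a carbonic anhydrase abundant in red cells, and Slc4a1 encodes band 3, the chloride and bicarbonate exchanger of the red cell membrane. The liver is the main site of red cell formation in the fetus, and blood in the vessels of an adult liver carries reticulocytes, which still hold RNA. These are background facts, and the arrays measured whole liver: fewer cells of a type and less RNA per cell cannot be told apart.

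Car1 and Slc4a1 had no entry in the RefSeq promoter table for build GRCm38.p6 and are named only. The promoters of Alas2 and Klf1, the 2 of the 4 genes that it held, are shown. Sequences that erythroid factors are known to bind are marked in them. Each is the 250 bases before the annotated start, written 5′ to 3′ on the gene's strand. The Klf1 window is chr8:84901732-84901981 on the plus strand, and the Alas2 window is chrX:150547167-150547416 on the plus strand. Capitals mark 2 motifs, searched on both strands and not overlapping here: CACCC and the GATA words, which were AGATAA as the first, AGATAG as the second, TGATAA as the third and TGATAG as the last.
Klf1: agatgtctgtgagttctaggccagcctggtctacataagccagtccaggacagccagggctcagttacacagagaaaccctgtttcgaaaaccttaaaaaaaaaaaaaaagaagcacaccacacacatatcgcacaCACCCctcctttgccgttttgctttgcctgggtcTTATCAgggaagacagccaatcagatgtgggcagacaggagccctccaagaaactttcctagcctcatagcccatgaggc
Alas2: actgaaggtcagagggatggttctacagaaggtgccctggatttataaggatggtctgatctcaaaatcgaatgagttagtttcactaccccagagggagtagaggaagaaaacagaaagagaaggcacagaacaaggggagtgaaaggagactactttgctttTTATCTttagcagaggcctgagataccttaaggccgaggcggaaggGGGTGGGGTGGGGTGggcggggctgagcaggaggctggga
The Klf1 window holds TGATAA on the opposite strand, 75 to 80 bases before the start, and CACCC on the gene's strand, 110 to 114 bases before it. The Alas2 window holds AGATAA on the opposite strand, 81 to 86 bases before the start. It also holds CACCC on the opposite strand in a run of 3 copies, at 26 to 30, 31 to 35 and 36 to 40 bases before the start. Of 32851 promoters of the same length, 26.5% hold a GATA word and 52.0% hold CACCC, so neither match is rare. A match describes the letters and is no measure of binding.

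The arrays were much alike in overall level, with medians between 5.32 and 5.38, and albumin (Alb), the main hepatocyte secretory protein, lay between 14.60 and 14.80 on every array. A description field of the labels names fat as the source of the cells, against liver in the tissue field and the source name. Adipoq, a defining adipocyte gene, was at 2.76 to 7.07 with a median of 3.11. The name erythroid rests on what the 4 genes are known for, and most red cell markers with a probe set of their own were low. Globin probe sets that carry several symbols were high, with a mean of 10.48 to 12.05 by time, and are described with the globins. Of 10 erythroid markers, 6 were measured by a probe set of their own. Gata1, the master factor of the lineage, lay between 5.07 and 5.67 on all arrays. Epb42, a band 3 binding protein, lay between 4.34 and 5.25, and Trim10 between 4.43 and 5.05. Hba-a1, an alpha globin, lay between 3.31 and 3.75. Rhag, of the Rh complex, lay between 2.04 and 2.68, and Hemgn, a nuclear protein of blood precursors, between 2.01 and 2.64. The last 3 never reached the log2 value of 5 used as the filter for testing, and the genes are therefore called by their own names below. The samples were deposited in 2 blocks, with 0.25, 0.5, 0.75 and 1.5 d in a block apart from the other times. The 2 comparisons between sets of times were repeated within a block, and listed genes whose call was lost there are named or counted. The test of variation over times, the steps between neighbouring times and the pairs of genes were not repeated there.

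Alas2 was lowest at 0.5 and 0.75 d and was back at its 0 d level by 7 d. Its log2 value was 9.98, 10.13 and 9.81 at 0 d, and 8.51, 8.58 and 8.59 at 0.25 d. It was 8.16, 7.88 and 7.60 at 0.5 d, and 7.65, 7.49 and 8.20 at 0.75 d. No array up to 3 d reached the lowest 0 d array. At 1 d it was 8.03, 8.62 and 8.69, and at 1.5 d 8.93, 8.77 and 8.61. At 2 d it was 8.45, 8.50 and 8.59, and at 3 d 8.89, 8.48 and 9.03. All arrays of these 4 times lay above the 0.75 d mean, though the lowest 1 d array was under the highest 0.75 d array. At 4 d it was 9.38, 9.89 and 9.68, at 7 d 9.70, 9.92 and 10.08, and at 14 d 9.98, 10.02 and 9.96. The 3 livers of 14 d were within the range of the 0 d livers.

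Car1 was far below its 0 d level from 0.25 to 3 d. It was 7.14, 7.38 and 6.83 at 0 d, then 5.82, 5.26 and 5.08 at 0.25 d, 5.05, 4.91 and 4.72 at 0.5 d, and 4.96, 4.67 and 4.71 at 0.75 d. It was 4.76, 4.90 and 4.69 at 1 d, 5.31, 5.11 and 4.98 at 1.5 d, 4.96, 4.76 and 4.93 at 2 d, and 5.18, 5.03 and 5.46 at 3 d. Between 0.5 and 2 d most arrays were under a log2 value of 5, where RMA compresses differences. Car1 was 5.96, 6.28 and 6.45 at 4 d, 6.24, 6.62 and 6.79 at 7 d, and 6.48, 7.32 and 6.96 at 14 d. All arrays of 7 d still lay under all arrays of 0 d, and those of 14 d overlapped them.

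Klf1 had its lowest mean at 2 d, a time that entered the choice of the genes. Its arrays of 1.5, 2 and 3 d overlapped. It was 6.98, 7.32 and 6.42 at 0 d, 5.83, 6.19 and 6.54 at 0.25 d, 6.15, 5.93 and 6.32 at 0.5 d, and 6.19, 6.76 and 5.85 at 0.75 d. The arrays of 0.25 and 0.75 d overlapped those of 0 d. Klf1 was 6.02, 6.01 and 6.04 at 1 d, 5.94, 5.55 and 5.71 at 1.5 d, 5.63, 5.48 and 5.62 at 2 d, and 5.48, 6.04 and 5.80 at 3 d. The arrays of 2 d lay under those of all times up to 1 d. It was 6.30, 6.51 and 6.62 at 4 d, 6.81, 6.71 and 6.92 at 7 d, and 6.34, 7.31 and 7.04 at 14 d.

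Slc4a1 did not share the fall. It was 4.15, 4.02 and 4.27 at 0 d, and 4.06, 4.16 and 4.19 at 2 d. Over the 33 arrays it ran from 3.93 to 5.22 with a median of 4.26, and it reached 5 on 1 array, at 7 d. Its highest values were at 7 d, with 4.54, 4.52 and 5.22, and at 14 d, with 4.45, 4.94 and 4.54. The other probe sets of Slc4a1, whose symbol is carried by 3 in all, averaged 3.73 and 3.21. The first of these read 3.97, 3.75 and 3.64 at 7 d and 3.82, 3.50 and 3.87 at 14 d. The second read 2.97, 3.10 and 3.23 at 7 d and 3.22, 3.07 and 3.12 at 14 d. They thus stayed near their averages at these times. The statements on Slc4a1 concern signals near the floor of the array.

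**Figure D1:**
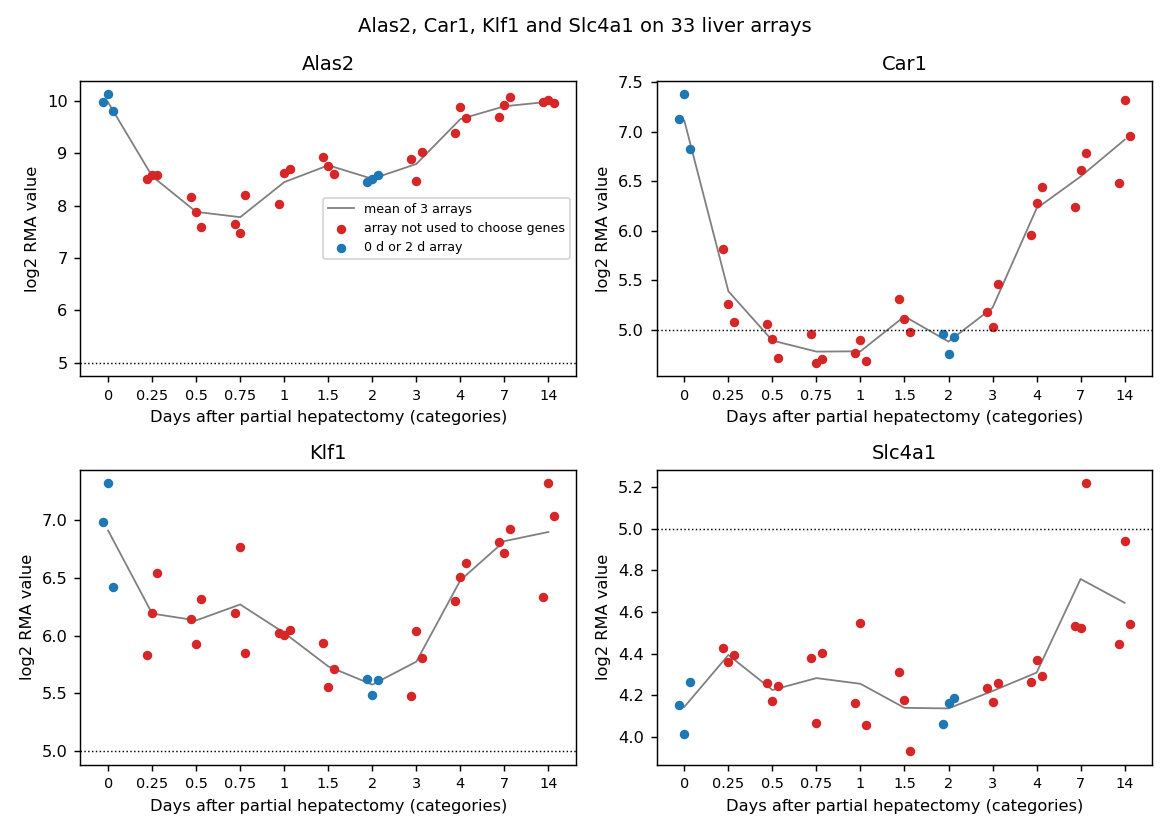
Log2 RMA value of Alas2, Car1, Klf1 and Slc4a1 (vertical axes, each on its own scale) by days after partial hepatectomy (horizontal axes, times as categories). Points are single livers, blue at 0 d and 2 d and red at the other 9 times, the line joins means of 3, and the dotted line is the log2 value of 5 used as the filter; Alas2, Car1 and Klf1 dip and return while Slc4a1 stays mostly under 4.5.

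Set against 0 d, the genes differed in when they were lowest. These differences are a description, since 0 d entered the choice, and all of them share the 0 d arrays. Car1 at 2 d minus 0 d was -2.23 ± 0.19 (SE of the limma fit over 33 arrays, n = 3 each). Alas2 was -1.46 ± 0.18 and Klf1 -1.33 ± 0.23 in the same comparison. Slc4a1 was -0.01 ± 0.15 without the filter. From the lowest difference of 13642 tested genes upward, Car1 was number 9, Alas2 number 44 and Klf1 number 68. All 3 arrays of 2 d lay under all 3 of 0 d for Car1, Alas2 and Klf1, as for 19.2% of the genes tested, and 11.6% passed the test as lower at 2 d. Nothing is read from these counts, since the same arrays chose the genes.

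The genes also differed from each other in the earliest livers, on arrays of another block of deposition than those of 0 d. Block and time cannot be told apart in the differences from 0 d at 0.25, 0.5, 0.75 and 1.5 d. At 0.25 d minus 0 d, Car1 was -1.72 ± 0.19, Alas2 -1.41 ± 0.18 and Klf1 -0.72 ± 0.23. Car1 and Alas2 lay under all 0 d arrays at that time, as 29.4% of genes did, and Klf1 overlapped them. At 0.5, 1, 1.5 and 3 d all 3 genes lay wholly under the 0 d arrays, as did 22.2%, 19.6%, 21.4% and 21.4% of genes at those times in that order. At 0.75 d Alas2 and Car1 did, with 21.7% of genes, and at 4 d Car1 alone, with 9.98%. Alas2 had its lowest mean at 0.75 d, at -2.19 ± 0.18, and Car1 there stood at -2.33 ± 0.19. Klf1 at 0.75 d was -0.64 ± 0.23. By 4 d, Alas2 was -0.32 ± 0.18, Klf1 -0.43 ± 0.23 and Car1 -0.89 ± 0.19. At 7 d Car1 was -0.56 ± 0.19, below all 0 d arrays as were 9.76% of genes, while Alas2 was -0.07 ± 0.18 and Klf1 -0.09 ± 0.23. At 14 d Car1 was -0.19 ± 0.19, Alas2 0.01 ± 0.18 and Klf1 -0.01 ± 0.23.

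Ranked by the mean of each time, 0 d and 14 d stood highest for Car1, followed by 7 d and 4 d, and all neighbours in that row overlapped. A gap without overlap separated 4 d from 0.25 d, and from there down to 0.75 d all neighbours overlapped again. Alas2 had a gap between 4 d and 3 d and another between 1.5 d and 0.25 d. Klf1 had a single gap, between 7 d and 4 d.

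**Figure D2:**
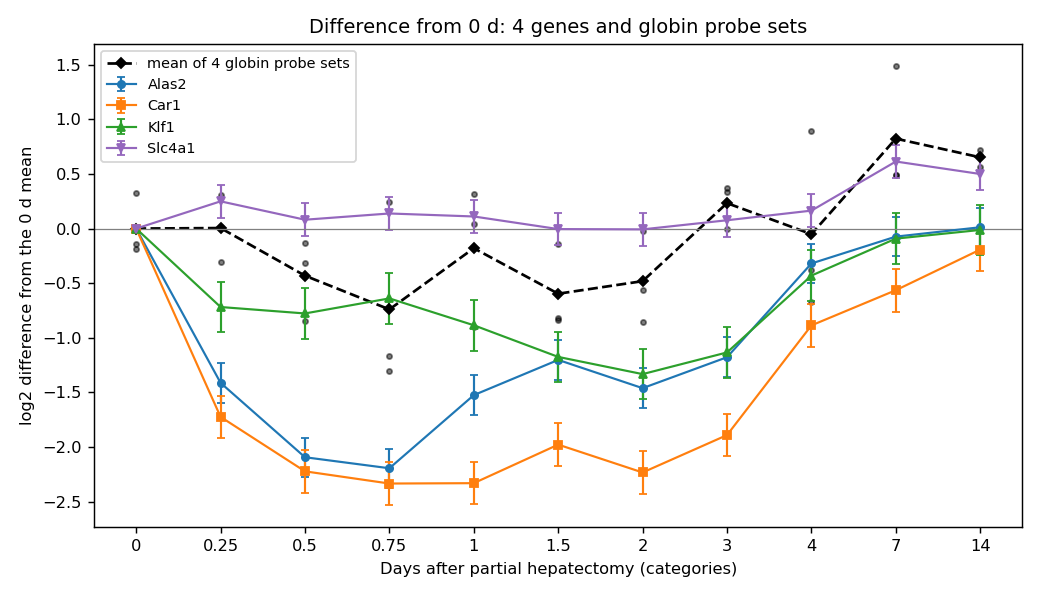
Log2 difference from the 0 d mean (vertical axis) by days after partial hepatectomy (horizontal axis, times as categories). Bars are standard errors of the limma fit for Alas2, Car1, Klf1 and, without the filter, Slc4a1; diamonds are the mean of 4 globin probe sets with single livers as grey dots. At 0.25 d Car1 stood at -1.72 and Alas2 at -1.41, while the globin mean was 11.23 at 0.25 d and 11.22 at 0 d.

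Tests were made on the 27 arrays that did not enter the choice, those of the 9 times other than 0 d and 2 d, in a limma fit over all 13642 genes with Benjamini-Hochberg adjustment. Car1, Alas2 and Klf1 varied over these times. The moderated F was 36.7 for Alas2 (adjusted p = 4.74e-09), 33.3 for Car1 (adjusted p = 9.77e-09) and 6.70 for Klf1 (adjusted p = 0.000645). Such variation was common, as 65.1% of genes passed this test. It shows that the changes do not rest on the 0 d and 2 d livers alone, and does not set the 3 genes apart from the others. Times of both blocks of deposition enter it, so block and time are not separated in it.

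The first question was whether the genes differed between the days of growth and the first hours. In the comparisons, 1 d was counted with the days of growth and 2 d was left out. The mean of 1, 1.5, 3 and 4 d was set against that of 0.25, 0.5 and 0.75 d. Alas2 averaged 8.92 in the later livers and 8.07 in the earlier ones, a difference of 0.84 ± 0.10 (SE, 12 against 9 arrays, limma adjusted p = 7.45e-07). Car1 averaged 5.34 in the later livers and 5.02 in the earlier ones, a difference of 0.32 ± 0.11 (limma adjusted p = 0.0156). By time Car1 averaged 4.78 at 1 d, 5.14 at 1.5 d, 5.22 at 3 d and 6.23 at 4 d. The means of 1, 1.5 and 3 d lay on both sides of the earlier mean of 5.02, and the 4 d livers carried most of that difference. Klf1 averaged 6.00 in the later livers and 6.20 in the earlier ones, and its difference of -0.19 ± 0.12 did not pass the test (limma adjusted p = 0.183). Its means of 6.02 at 1 d, 5.73 at 1.5 d and 5.77 at 3 d lay under that earlier mean. At 4 d its mean was 6.48, above it. Among all genes 29.2% passed as higher and 23.3% as lower, so that 2 genes higher and 1 not called is near the background. Arrays of the 2 sets of times overlapped for all 3 genes, while 2.33% of genes had every later array above every earlier one. Within the block of deposition that holds 0.25, 0.5, 0.75 and 1.5 d, 1.5 d minus the 3 earlier times was 0.70 ± 0.16 for Alas2 (limma adjusted p = 0.00202) and 0.12 ± 0.16 for Car1 (limma adjusted p = 0.652), so the call for Car1 was lost. Klf1 was -0.46 ± 0.18 there (limma adjusted p = 0.0650). That comparison also leaves out 1, 3 and 4 d, so an effect of the block and one of the times compared cannot be told apart.

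The second question was whether the regrown livers differed from those of the days of growth. All 3 genes were higher at 7 and 14 d than at 1, 1.5, 3 and 4 d. Car1 averaged 6.74 at 7 and 14 d and 5.34 before, a difference of 1.39 ± 0.12 (SE, 6 against 12 arrays, limma adjusted p = 3.98e-08). Alas2 averaged 9.94 at 7 and 14 d and 8.92 before, a difference of 1.02 ± 0.12 (limma adjusted p = 1.55e-06). Klf1 averaged 6.86 at 7 and 14 d and 6.00 before, a difference of 0.85 ± 0.14 (limma adjusted p = 8.57e-05). These are among the larger rises of the table: counted from the highest of 13642 differences, Car1 was number 11, Alas2 number 35 and Klf1 number 57, and 12.1% of genes passed as higher. The genes were chosen for a fall at 2 d, a time between 1.5 and 3 d. Low values at the times beside it, and so these ranks, may in part follow from that choice. In each gene some arrays of 4 d reached into the range of the later livers, and 0.33% of genes had every later array above every earlier one. Within the block of deposition that holds 1, 3, 4, 7 and 14 d, the differences were 1.32 ± 0.13 for Car1, 0.98 ± 0.12 for Alas2 and 0.76 ± 0.14 for Klf1, all past the test (limma, largest adjusted p = 0.000597). Slc4a1, fitted without the filter, was higher by 0.47 ± 0.10 (limma adjusted p = 0.00108), and its difference in the first comparison was -0.07 ± 0.09 (limma adjusted p = 0.536). These values are of 1 of its 3 probe sets, near the floor, and the others stayed near their averages at 7 and 14 d.

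Steps between neighbouring times placed the changes. From 0.25 d to 0.5 d Alas2 dropped by 0.68 on the log2 scale (SE 0.19, limma adjusted p = 0.0141), a step in which 5.52% of genes passed as lower. Car1 at 0.5 d minus 0.25 d was -0.50 ± 0.20 (limma adjusted p = 0.0768). The largest upward step was that from 3 d to 4 d. At 4 d minus 3 d Car1 was 1.00 ± 0.20 (limma adjusted p = 0.00275) and Alas2 was 0.86 ± 0.19 (limma adjusted p = 0.00697), where 3.31% of genes passed as higher. Klf1 was 0.70 ± 0.22 in the same step (limma adjusted p = 0.0620). All 3 arrays of 4 d lay above all 3 of 3 d for each of the 3 genes, as for 18% of genes. None of the 3 genes passed the limma test in the remaining steps. The upward step of Alas2 at 1 d minus 0.75 d, 0.67 ± 0.19, was past the threshold only before adjustment (limma adjusted p = 0.0889). Of all genes 2.15% passed either way at 0.75 d minus 0.5 d, 1.35% at 1 d minus 0.75 d, 3.18% at 1.5 d minus 1 d, 4.88% at 3 d minus 1.5 d, 0.711% at 7 d minus 4 d and 0% at 14 d minus 7 d. The unadjusted p in that last step was 0.0748 for Car1, the lowest of the 3 genes.

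The courses of the 3 genes were then compared in pairs, by exact permutation of the arrays between the later and the earlier times, two-sided, with p adjusted over 6 pairs. These pairs were chosen after the values had been seen. Arrays were permuted singly across times, although livers of the same time share its mean. The p-values therefore do not measure the spread between livers of a time, and treat arrays of a time as independent. Times of both blocks of deposition enter the pairs. Between the days of growth and the first hours, Alas2 changed by 1.04 more than Klf1 (exact permutation, adjusted p = 0.000919) and by 0.52 more than Car1 (exact permutation, adjusted p = 0.000919). Car1 changed by 0.52 more than Klf1 (exact permutation, adjusted p = 0.0327). At 7 and 14 d against the days of growth, Car1 changed by 0.54 more than Klf1 (exact permutation, adjusted p = 0.0164). Alas2 minus Car1 was -0.37 (exact permutation, adjusted p = 0.0113), and Alas2 minus Klf1 was 0.17 (exact permutation, adjusted p = 0.397). Alas2 thus had the largest change in the first comparison and Car1 in the second. All are differences of log2 differences, and those of Car1 start from a signal near the floor.

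Heme synthesis is the pathway that Alas2 starts. Of 12 tested genes of heme synthesis and mitochondrial iron import, 7 were higher and 1 was lower at 1 to 4 d than at 0.25 to 0.75 d, beside 29.2% higher and 23.3% lower of all genes. Tmem14c, a porphyrinogen transporter, was higher by 0.78 ± 0.05 (limma adjusted p = 2.26e-10). Alad, the second enzyme of the pathway, was higher by 0.74 ± 0.10 (limma adjusted p = 4.15e-06). Abcb10, a mitochondrial transporter, was higher by 0.62 ± 0.08 and Urod, a decarboxylase of the pathway, by 0.47 ± 0.04. Slc25a37, the mitochondrial iron importer mitoferrin, Fech, which inserts the iron, and Ppox were the other 3 called higher. Cpox was lower, with a difference of -0.38 ± 0.08 (limma adjusted p = 0.000646). Alas1, the form of the first enzyme used by hepatocytes, was -0.22 ± 0.22 and not called (limma adjusted p = 0.406). Within the block of deposition, 5 of the 12 were called higher by limma and none lower, beside 16.2% and 11.1% of all genes, and the calls of Fech, Ppox and Cpox were lost. The median of the list was 0.24, and that of all genes -0.01.

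In the second comparison, in which Alas2 rose, 2 of the 12 heme genes were higher and 3 lower. Among all genes 12.1% passed as higher and 17.7% as lower, so the higher count is near the background. Fech was higher by 0.25 ± 0.06 (limma adjusted p = 0.00255) and Glrx5, of iron-sulfur cluster assembly, by 0.20 ± 0.05 (limma adjusted p = 0.00568). Alad was -0.41 ± 0.12 (limma adjusted p = 0.0106), Urod -0.40 ± 0.05 (limma adjusted p = 6.17e-06) and Cpox -0.29 ± 0.09 (limma adjusted p = 0.0210), all lower. Within the block of deposition 2 were higher and 2 lower, beside 9.54% and 15.9% of all genes, and the call of Cpox was lost. The list's median was 0.03 and that of all genes 0.01. Hepatocytes also make heme with these enzymes.

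Among 12 erythroid transcription factors, 3 were higher and 2 lower at 1 to 4 d than at 0.25 to 0.75 d, close to the 29.2% and 23.3% of all genes. Lmo2, a bridging protein of the Gata1 complex, was higher by 0.69 ± 0.09 (limma adjusted p = 1.13e-06). E2f2, a cell cycle factor used by erythroblasts, was higher by 0.67 ± 0.11 (limma adjusted p = 2.71e-05), and Nfe2 by 0.37 ± 0.08 (limma adjusted p = 0.000845). Lyl1 and Klf3 were lower. The second comparison gave 3 higher and 2 lower, beside 12.1% and 17.7% of all genes: Ldb1, which joins distant regulatory sites in the Gata1 complex, was higher by 0.39 ± 0.08 (limma adjusted p = 0.000694), with Lyl1 and Sox6, while E2f2 was lower by a difference of -0.62 ± 0.12 (limma adjusted p = 0.000636), with Nfe2, whose call was lost within the block of deposition. Gata1 was -0.02 ± 0.07 in the first comparison (limma adjusted p = 0.857) and 0.16 ± 0.07 in the second (limma adjusted p = 0.110).

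The membrane genes, to which Slc4a1 belongs, were called in both directions in the first comparison. Of all genes, 29.2% passed as higher and 23.3% as lower there, and 12.1% and 17.7% in the second comparison. Within the block of deposition these shares were 16.2% and 11.1%, then 9.54% and 15.9%. Of 12 tested genes of the red cell membrane and blood groups, 2 were higher at 1 to 4 d than before, Gypc, a glycophorin, by 0.56 ± 0.10 (limma adjusted p = 0.000103) and Tspan33 by 0.21 ± 0.06 (limma adjusted p = 0.00536). Rhd, Ermap and Dmtn were lower, by differences between -0.16 and -0.13. Tspan33 alone of these 5 was called within the block of deposition; Gypc was 0.24 ± 0.16 there (limma adjusted p = 0.272). None of the 12 passed the limma test at 7 and 14 d after adjustment, and 2 had an unadjusted p under 0.05; within the block of deposition 1, Dmtn, was called higher. Of 11 other erythroblast genes, 4 were higher and 1 lower at 1 to 4 d, beside the same 29.2% and 23.3% of all genes. Car2, a carbonic anhydrase like Car1 that is also made outside the red cell lineage, was higher by 0.90 ± 0.07 (limma adjusted p = 8.11e-10), and Steap3, Prdx2 and Tfr2 were the other 3. Ube2o was lower, and its call and that of Tfr2 were lost within the block of deposition. In the second comparison, Epor, the erythropoietin receptor, was higher by 0.23 ± 0.06 (limma adjusted p = 0.00659), and Bpgm, which makes the compound that lowers the oxygen affinity of hemoglobin, was lower, at -0.21 ± 0.06 (limma adjusted p = 0.00965). Both calls held within the block of deposition, where Car2 was also lower.

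Over the 5 erythroid lists, 69 genes were listed, 58 measured and 50 tested. At 1 to 4 d against the first hours, 16 were higher and 7 lower, 23 of 50, where 52.5% of all genes were called. Later, at 7 and 14 d, 7 were higher and 6 lower, 13 of 50, where 29.7% of all genes were called. The median difference was -0.01 in the first comparison and 0.03 in the second, against -0.01 and 0.01 for all genes. The listed red cell genes were thus called about as often as other genes, in both directions, and their median was near that of all genes. The first count was 14 of 50 within the block of deposition, where 16.2% of all genes were called higher and 11.1% lower.

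**Figure D3:**
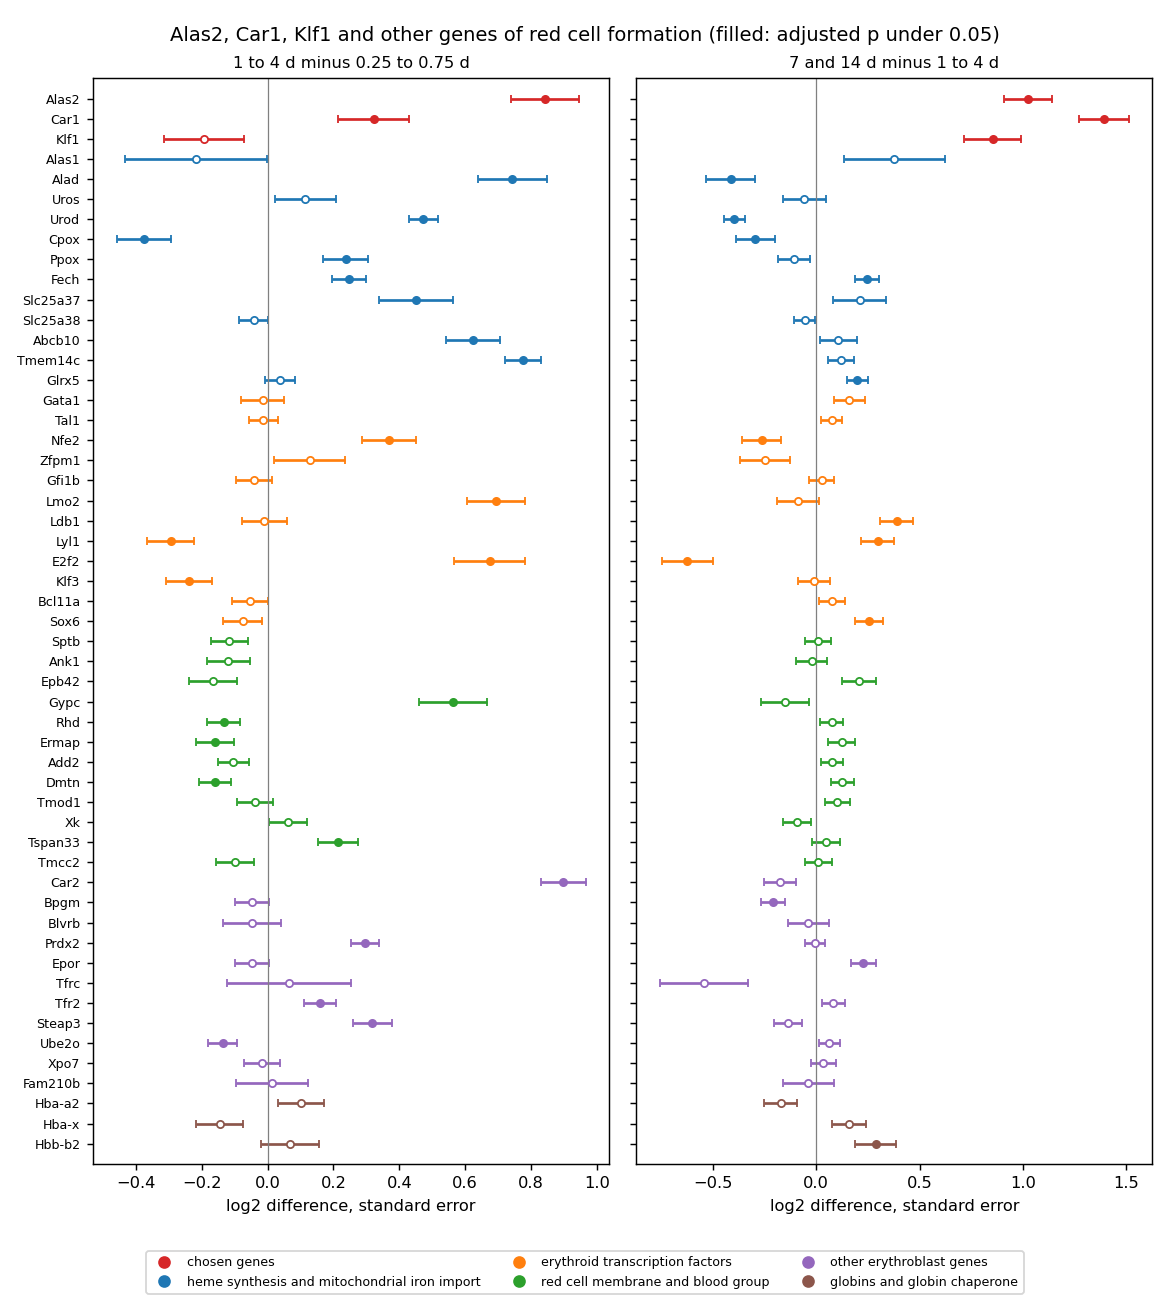
Log2 difference with its standard error from the limma fit over 27 arrays (horizontal axes) for Alas2, Car1, Klf1 and the 50 tested genes of 5 lists of red cell formation (rows, coloured by list), at 1 to 4 d minus 0.25 to 0.75 d on the left and at 7 and 14 d minus 1 to 4 d on the right. Filled points passed the test; on the right the 3 chosen genes, at 0.85 to 1.39, lie to the right of all 50 others.

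Globin messages are the most abundant of red cells, and some globin probe sets on this array carry several symbols. Of 10 listed globin genes and the globin chaperone, 6 were measured by a probe set of their own and 3 tested. None of these passed the limma test at 1 to 4 d against the first hours, and none had an unadjusted p under 0.05. Hbb-b2 was higher at 7 and 14 d by 0.29 ± 0.10 (limma adjusted p = 0.0326), a call lost within the block of deposition, where it was 0.28 ± 0.10 (limma adjusted p = 0.0540). A further 4 probe sets carry several symbols that are all globin genes, 3 with 2 alpha globin symbols and 1 with 4 beta globin symbols, and they were looked at after the values had been seen. Their mean log2 value was 11.22 at 0 d, 11.23 at 0.25 d, 10.79 at 0.5 d, 10.48 at 0.75 d, 11.04 at 1 d, 10.63 at 1.5 d, 10.74 at 2 d, 11.46 at 3 d, 11.17 at 4 d, 12.05 at 7 d and 11.87 at 14 d. At 0.25 d, when Car1 and Alas2 were already low, the globin mean ran from 10.91 to 11.53, against 11.03 to 11.55 at 0 d. The livers of 0.25 d and 0 d are of different blocks of deposition. The livers of 7 d, at 11.71 to 12.71, and of 14 d, at 11.79 to 11.94, lay above all 0 d livers.

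At 7 and 14 d minus 1 to 4 d the 4 globin probe sets were higher by 0.78 to 0.95 (limma, adjusted p between 0.0138 and 0.0162 over 4290 probe sets without a single symbol, of which 10.2% passed as higher). They measure nearly the same messages and are not 4 independent results. The call rests on 7 d replicate 3: without it the differences were 0.63 to 0.78 with adjusted p of 0.0553 to 0.0646 by limma. Within the block of deposition they were 0.63 to 0.81, with adjusted p of 0.0493 to 0.0689. In the first comparison they were 0.17 to 0.31 and not called (limma, adjusted p between 0.247 and 0.575, with 14.5% of these probe sets passing as higher). Globin RNA in whole liver includes that of blood in its vessels, and the part of blood content in the values of the other genes was not tested.

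Livers of the same time also differed among themselves. After the mean of each time was taken off, Alas2 and the globin mean correlated at r = 0.56 over 33 livers, Slc4a1 and the globin mean at 0.41, Car1 and the globin mean at 0.20, and Klf1 and the globin mean at 0.05. Between the genes, the same deviations correlated at 0.40 for Car1 and Alas2, at 0.28 for Car1 and Klf1 and at -0.10 for Alas2 and Klf1. Slc4a1, near the floor, correlated in this way at 0.47 with Car1, 0.38 with Alas2 and 0.02 with Klf1. Over all 33 arrays with the time course left in, Car1 and Alas2 correlated at r = 0.91 (Spearman's rho 0.88), Car1 and Klf1 at 0.77 (rho 0.60), and Alas2 and Klf1 at 0.59 (rho 0.54). Slc4a1 correlated there at 0.46 with Car1, 0.44 with Alas2 and 0.45 with Klf1. With the globin mean, r over the same arrays was 0.65 for Alas2, 0.64 for Slc4a1, 0.56 for Car1 and 0.43 for Klf1. These are descriptions: the points share the time course, each array's RNA and its normalization.

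Signals that act on red cell formation and iron use were also listed. Hamp encodes hepcidin, the liver hormone that blocks iron export, and Hamp2 is its mouse relative. Of 6 tested genes of that list, 1 was higher and 4 were lower at 1 to 4 d than at 0.25 to 0.75 d, beside 29.2% and 23.3% of all genes. Hamp was lower, at -1.37 ± 0.26 (limma adjusted p = 0.000151), and Hamp2 at -0.88 ± 0.23 (limma adjusted p = 0.00256). Id1, a target of bone morphogenetic protein signals, was lower at -0.80 ± 0.22 and Smad6, an inhibitor of them, at -0.24 ± 0.10, while Bmp6, the ligand that induces hepcidin, was higher by 0.19 ± 0.06. Hamp, Hamp2 and Smad6 were also lower within the block of deposition, while Id1 and Bmp6 were not called, Bmp6 at -0.11 ± 0.10 (limma adjusted p = 0.428). In the second comparison, Hamp2 was higher by 1.80 ± 0.26 (limma adjusted p = 2.15e-05) and Id1 lower at -0.69 ± 0.24 (limma adjusted p = 0.0376), which was lost within the block of deposition (limma adjusted p = 0.0661).

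Of 8 tested genes of red cell clearance, 3 were higher and 2 lower in the first comparison, beside 29.2% and 23.3% of all genes. Slc40a1, the iron exporter ferroportin, was higher by 0.94 ± 0.15 (limma adjusted p = 2.37e-05), Blvra, which makes bilirubin, by 0.39 ± 0.04 (limma adjusted p = 3.46e-07), and Slc11a1 by 0.36 ± 0.14. Hmox1, the heme oxygenase, was lower at -0.78 ± 0.16 (limma adjusted p = 0.000325), as was Hp, which binds free hemoglobin. Blvra was higher and Hmox1 lower within the block of deposition too, and the calls of Slc40a1, Slc11a1 and Hp were lost. Hp and Hpx, which binds free heme, were lower at 7 and 14 d, also within the block.

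Markers of other cells moved over the same times. Of all genes, 29.2% passed as higher and 23.3% as lower at 1 to 4 d, and 12.1% and 17.7% at 7 and 14 d. Within the block of deposition these shares were 16.2% and 11.1%, then 9.54% and 15.9%. All 8 Kupffer cell markers, of the liver macrophages that take up old red cells, were higher at 1 to 4 d than at 0.25 to 0.75 d, with a median difference of 0.97, but within the block of deposition 1 of 8, Timd4, was. Later, at 7 and 14 d, 3 of 8 were higher, and within the block 1, Csf1r. The mean of the 8 lay between 7.24 and 7.80 at 0.5 d, between 9.04 and 10.22 at 7 d and between 7.83 and 8.37 at 0 d. All 5 proliferation markers were higher at 1 to 4 d and lower at 7 and 14 d, with median differences of 2.77 and -1.64. The mean of 6 hepatocyte markers stayed between 13.92 and 14.07 on all arrays; 2 of 6 were higher and 1 lower at 1 to 4 d (1 and 1 within the block of deposition), and none passed the limma test at 7 and 14 d (1 at an unadjusted p under 0.05). The part of these cells in the values of the 4 genes was not tested.

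Markers of other blood cells were low for the most part. Their counts stand beside 29.2% higher and 23.3% lower of all genes at 1 to 4 d, and 12.1% and 17.7% at 7 and 14 d. Within the block of deposition the shares were 16.2% and 11.1%, then 9.54% and 15.9%. Of 9 tested markers of granulocyte precursors, 1 was higher at 1 to 4 d, Prtn3, a neutrophil protease, and at 7 and 14 d 3 were higher and 1, Prtn3, was lower; Mpo never reached a log2 value of 5. Of 8 tested platelet and megakaryocyte markers, 1 was higher and 2 lower at 1 to 4 d, and 1 was higher at 7 and 14 d. None of the platelet calls at 1 to 4 d held by limma within the block of deposition, and at 7 and 14 d 2 were higher there. Of 4 tested blood progenitor markers, 1 was higher and 1 lower in each comparison, of which Gata2 at 7 and 14 d alone was called within the block, and Myb stayed between 2.84 and 3.43. Of 6 mast cell markers 1 was tested, Tpsb2, lower in the first comparison and higher in the second, and called in neither by limma within the block (adjusted p = 0.0610 and 0.0828). Of 3 tested lymphocyte markers, none passed the limma test at 1 to 4 d (1 at an unadjusted p under 0.05) and 1 was higher at 7 and 14 d. Of 3 tested adipocyte markers, 1 was lower at 1 to 4 d, and at 7 and 14 d none passed by limma, adjusted or not. The mean of 4 adipocyte markers ran from 6.36 to 7.20 at 0.25 d, where Car1 and Alas2 were already low, and from 4.33 to 5.40 at 0 d.

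The genes whose course was most like the scaled mean of the 4 chosen genes were not from the red cell lists. The 10 with the highest Pearson correlation over 33 arrays were Serpinf1 (r = 0.93), D2hgdh, Man2b1, Pigr, Apoe, Gabarapl1, Acadsb, Calcoco1, Slc27a5 and Apoc1 (r = 0.89). The profile includes Slc4a1, near the floor; with the 3 genes above the filter, Pttg1, C2, Ivd and Cyp4v3 took the places of Pigr, Calcoco1, Slc27a5 and Apoc1. Serpinf1 encodes a secreted serpin, Apoe and Apoc1 are apolipoproteins, and Slc27a5 is a bile acid and fatty acid ligase of hepatocytes. Pigr carries antibodies into bile, Acadsb acts in branched-chain amino acid breakdown, and Man2b1 is a lysosomal mannosidase. On the 27 arrays that did not enter the choice, r was between 0.88 and 0.93 for these 10. All 10 were higher at 7 and 14 d than at 1 to 4 d, by 0.18 to 0.78 (limma, largest adjusted p = 0.000395). Correlation with a chosen profile that is itself high at 7 and 14 d is how they were found. Their r and their rise therefore describe the choice and are no separate test. The listed red cell genes nearest to the profile were Glrx5 (r = 0.76, number 196 of 12884), Ldb1 (r = 0.73, number 273) and Fech (r = 0.69, number 420).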

How the data were processed

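Livers at 11 times, 3 per time, were measured on 33 arrays of a mouse platform. Per the submitters' processing notes, RMA was used, and the authors deposited log2 values; its version is not given in the sources used here. RMA makes the distributions of arrays alike and compresses differences near the floor. The platform annotation gave 34945 of 45101 probe sets a single gene symbol and 932 several; 9160 were unnamed and 64 were controls. By Entrez number 34741 matched the gene table of GRCm38.p6, and 0 symbols changed. For each of 18193 genes the probe set of highest mean was used. Testing needed a log2 value of at least 5 on 3 arrays, which 13642 genes had. No 2 arrays held identical values.

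A mean per time was fitted with limma (version 3.58.1 under R 4.3.3; lmFit, eBayes) to the 27 arrays of the 9 times other than 0 d and 2 d, with 18 residual degrees of freedom, and to all 33 arrays for differences from 0 d. P-values are two-sided and Benjamini-Hochberg adjusted over all genes tested, with a threshold of 0.05. These limma p-values measure the spread between livers of a time, which the labels call biological replicates. The permutation p-values of the pairs do not. Precision is limited by 3 arrays per time, and arrays have no count depth. The 4 genes and all lists were chosen with earlier results of these data known. All chosen genes and measured listed genes could be named, with values for up to 4 per list and comparison among those past the threshold with the largest difference, and the 10 genes most correlated with the chosen genes' scaled mean. Probe sets without a single symbol were fitted apart. The steps were tested on simulated data. Alternatives were other filters, quantile normalization, probe sets averaged per gene, another prior, all arrays, the replicate number as a term, comparisons within a block of deposition, and each array left out. Python 3.11.15 with matplotlib 3.10.9 made the plots.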

Additional observations from a re-analysis of the deposited data

How the results depend on the processing

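With 3 arrays per time no sample was tested as an outlier. Apart from leaving out arrays, 138 of the recomputed values kept their direction and side of the threshold, or, for counts, stayed within 1.5 times; 8 counts moved, 1 call was lost and 0 values reversed. The call lost was that of Car1 at 1 to 4 d minus 0.25 to 0.75 d within a block of deposition, at 0.12 (limma adjusted p = 0.652). Only 1.5 d stands for the later times within that block, so the times compared differ too. There the count of other red cell genes called was 14 with 2 lower, and that of all genes 3725 in place of 7161; fewer arrays enter. With a filter at a log2 value of 7 fewer genes were tested: 15 were called in that comparison with 3 lower, and 8 at 7 and 14 d minus 1 to 4 d with 4 higher. With quantile normalization 11 were lower in the first comparison, and the cause was not tested.

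Leaving out each of the 27 arrays ended or turned no call of Car1, Alas2 or Klf1. At 7 and 14 d minus 1 to 4 d, Car1 ran from 1.29 to 1.50, Alas2 from 0.97 to 1.07 and Klf1 from 0.75 to 0.99. In the first comparison Car1 ran from 0.27 to 0.39 (largest limma adjusted p = 0.0426), Alas2 from 0.79 to 0.91 and Klf1 from -0.26 to -0.11. Arrays were left out singly, so the 4 d livers, which carried most of the Car1 difference, were never left out together. The counts of other red cell genes ran from 21 to 25 in the first comparison and from 10 to 14 in the second. Slc4a1 at 7 and 14 d ran from 0.35 to 0.53 without the filter.

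Replicate numbers did not pair the livers: of 165 pairs with the same number 33 had deviations correlating above 0.1, with a range of -0.35 to 0.39, and 15 of 33 arrays were most like arrays of their own number. With the replicate block, 23 other red cell genes were called in the first comparison and 13 in the second, and Car1 was 0.32 and 1.39; it changed no call. Signals near the floor limit what can be said of Slc4a1 and of the depth of Car1's trough.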
